A study of Homo sapiens with 18 samples.

Results

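VHL was compared with its absence in cells of the 786-O line that all carried PBRM1 shRNA. The comparison used 6 of the 18 arrays of the series, 3 from VHL+/+ PBRM1 shRNA cells and 3 from VHL-/- PBRM1 shRNA cells, which were chosen by their labels alone. 786-O is an established human clear cell renal cell carcinoma line that lacks working VHL, so the VHL-/- cells keep the state of the line and the VHL+/+ cells have VHL put back. Both groups carried the stable shRNA-94 against PBRM1, a subunit of the PBAF form of the SWI/SNF chromatin remodelling complex, and both grew untreated in DMEM with fetal bovine serum. The other 12 arrays came from VHL+/+ and VHL-/- cells with scramble shRNA (SCR) or KDM5C shRNA, 3 in each group, and served here as the VHL effect in other shRNA backgrounds. The methods do not say how VHL was returned or whether the lines were clones or pools. Nothing in the labels says that replicates were separate cultures, so the p-values measure the spread between these samples, which may be technical.

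VHL is the substrate recognition subunit of a ubiquitin ligase that marks the alpha subunits of the hypoxia-inducible factors (HIF) for degradation. Cells without VHL keep HIF active in normal oxygen, and the HIF target genes for glucose uptake, secreted growth and vascular factors, and pH control stay on. 786-O cells make HIF2alpha, encoded by EPAS1, and not HIF1alpha. ISGF3, which includes STAT2 and IRF9, is the transcription factor through which interferon-stimulated genes are switched on.

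Return of VHL in PBRM1 shRNA cells was accompanied by lower levels of HIF targets, and MMP7, CLDN2 and KCNJ16 were among the genes that rose. Of 13141 genes, 134 passed the test, taken as a limma adjusted p below 0.05 with a change of at least 1.5-fold, which is 1.02% of the genes tested. In each direction 67 genes passed, 0.51% of all genes. With no fold threshold 311 genes passed (2.37%), 152 of them lower (1.16%) and 159 higher (1.21%). The median change was 1.81-fold among the 67 lower genes and 1.65-fold among the 67 higher genes, and 30 lower and 13 higher genes changed by at least 2-fold. The largest fall was 3.84-fold, in ADM, and the largest rise was 4.86-fold, in MMP7. The median log2 difference over all genes was 0.0042. Without VHL+/+ PBRM1 shRNA replicate 3, 88 genes passed, 56 of them lower and 32 higher, and 39 genes passed when the model had no term for the chip and 55 when it used only these 6 arrays.

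Values are log2 signals, differences are VHL+/+ minus VHL-/- on that scale, and the chip is a numbered field of the labels, spelled ChIP there and read here as the array slide, which is an inference. Chip 1 held replicates 1 and 2 of each group and chip 2 held replicate 3, and 3130 genes differed between the chips at adjusted p below 0.05. All 134 genes moved the same way on both chips, but they were called on the arrays of both chips together, so this is no replication. The median log2 difference of the higher genes was 0.62 on chip 1 and 1.02 on chip 2, and 52 of the 67 were larger on chip 2. For the lower genes the medians were -0.84 and -0.93. After removal of the chip effect the VHL+/+ and VHL-/- arrays did not overlap for 133 of the 134 genes, all but TRIB1, against 9.38% of all genes lower and 9.91% higher without overlap. The 134 were called on these same arrays, so the lack of overlap follows largely from the choice and is no separate support. The genes named for the largest changes were also picked from those without overlap. On the deposited values, which keep the chip effect, the 3 VHL+/+ arrays correlated at 0.976 to 0.992 and the 3 VHL-/- arrays at 0.987 to 0.995. Arrays of different groups correlated at 0.974 to 0.991, a range close to that within the VHL+/+ group.

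**Figure D1:**
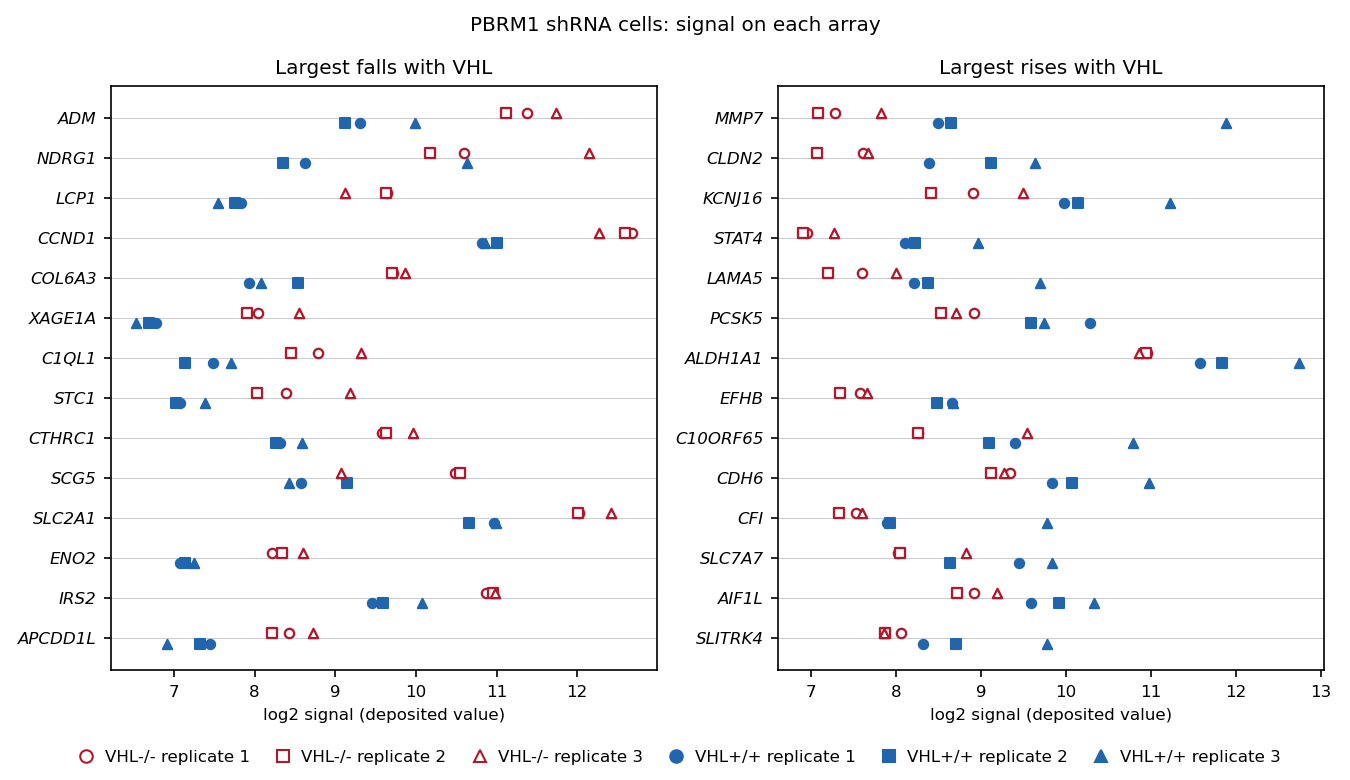
Deposited log2 signal (horizontal axis) of 14 of the 15 genes with the largest falls and 14 of the 15 with the largest rises with VHL in PBRM1 shRNA cells. Each marker is 1 array, open for VHL-/- and filled for VHL+/+, and its shape gives the replicate, with triangles for chip 2. ADM lay at 11.12 to 11.74 without VHL and 9.12 to 9.99 with it, and the chip 2 value of MMP7 with VHL, 11.88, lay far above the other values of that gene.

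The transcripts of VHL, PBRM1 and EPAS1 themselves did not separate the groups. VHL read 7.72, 7.81 and 8.04 in the VHL-/- arrays and 8.16, 7.81 and 8.10 in the VHL+/+ arrays (difference 0.17, SE 0.09, adjusted p = 0.447), so the array did not check the genotype labels. PBRM1 read 7.16, 7.18 and 7.38 without VHL and 7.51, 7.09 and 7.02 with it, a difference of -0.03 with an adjusted p of 0.956. On the SCR arrays PBRM1 read 7.41, 7.24 and 7.26 without VHL and 7.38, 7.46 and 7.22 with it, and the PBRM1 shRNA arrays differed from these by -0.11 (SE 0.08, limma adjusted p = 0.515). The values overlapped, so the knockdown could not be checked from the PBRM1 mRNA on this array, and the cells are named by their labels. EPAS1 differed by 0.17, with an adjusted p of 0.83. Of the 10 listed renal carcinoma markers 8 were in the table, all but PAX2 and CA9, at percentiles of mean signal from 41.1 to 99.7. VIM, CD70 and CDH2 were the highest, the renal lineage factor PAX8 lay at 66.8, EGFR at 49.6 and KRT18 at 41.1. The leukocyte markers MS4A1, NKG7 and ITGAM, the endothelial markers PECAM1 and TEK and the fibroblast collagens COL1A1, COL1A2 and COL3A1 lay at percentiles 4.51 to 17.8, while LYZ lay at 21.4, LUM at 43.2 and CD68 at 68. CD68 thus lay above PAX8, and LUM above KRT18, so these percentiles do not set the marker groups fully apart. None of the markers was called except CDH6.

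HIF targets were the largest listed group among the lower genes. Of 75 HIF targets in the table, 16 were called lower and 1 higher, 22.7% of the list against 1.02% of all genes, and 63 of the 75 differences were negative. The median difference of the list was -0.21. The 16 made up 23.9% of the 67 lower genes. On the level of the whole list, the median over its genes was 9.25, 9.04 and 9.12 on the VHL-/- arrays after removal of the chip effect. On the VHL+/+ arrays it was 8.86, 8.90 and 8.92, with no overlap. The levels of the matrix list, higher with VHL, and of the inflammatory cytokine list, lower with VHL, did not overlap either. The HIF targets of glucose uptake and glycolysis taken alone did overlap, at 10.53, 10.37 and 10.51 without VHL and 10.55, 10.43 and 10.2 with it. Leaving out each of the 6 arrays in turn gave 13 to 18 HIF targets called lower.

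The secreted HIF targets held the largest fall of the comparison. ADM encodes adrenomedullin, a vasodilating peptide. Its signal was 11.38, 11.12 and 11.74 on the 3 VHL-/- arrays and 9.30, 9.12 and 9.99 on the 3 VHL+/+ arrays, and fell by 1.94 (SE 0.16, adjusted p = 3.56e-06). Every VHL+/+ array lay below every VHL-/- array, which for called genes follows largely from the choice and is no separate support. STC1, which encodes the secreted glycoprotein stanniocalcin, read 8.39, 8.03 and 9.18 without VHL and 7.07, 7.02 and 7.39 with VHL, and fell by 1.37 (SE 0.21, adjusted p = 0.00162). Every VHL+/+ array of STC1 also lay below every VHL-/- array, and its call was lost without a chip term (adjusted p = 0.115). ANGPTL4, an inhibitor of lipoprotein lipase, fell by 0.64 (SE 0.14, adjusted p = 0.0212) but lost its call without VHL+/+ replicate 2 (adjusted p = 0.0643), VHL+/+ replicate 3 (0.139) or VHL-/- replicate 3, where its change missed the fold threshold. The call of ANGPTL4 was also lost without a chip term (limma adjusted p = 0.0788) and with the 6 arrays alone (0.226). Of this list 4 of 17 genes were called lower. The exception to the direction was VLDLR, a lipoprotein receptor that HIF is known to raise, which rose by 0.64 (adjusted p = 0.0309) and was not called without VHL+/+ replicate 2 (0.0872), VHL+/+ replicate 3 (0.204), VHL-/- replicate 2 (0.118) or VHL-/- replicate 3 (0.122).

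Of the 24 genes of glucose uptake and glycolysis, 4 were called lower and 20 had a negative difference, with a list median of -0.11. SLC2A1, the glucose transporter GLUT1, read 12.02, 12.01 and 12.42 without VHL and 10.97, 10.66 and 10.99 with it, and fell by 1.28 (SE 0.11, adjusted p = 5e-06). ENO2, a neuronal form of the glycolytic enzyme enolase, read 8.22, 8.34 and 8.60 without VHL and 7.07, 7.13 and 7.25 with VHL, and fell by 1.24 (SE 0.13, adjusted p = 3.4e-05). Both genes showed a gap between the groups wider than the range within either. The glucose transporter SLC2A3 fell by 0.76 and the glycolytic enzyme ALDOA by 0.63. SLC2A3 was not called without VHL+/+ replicate 1 (adjusted p = 0.0552) or VHL-/- replicate 1 (0.0585), and ALDOA dropped just under the fold threshold, at -0.58, without VHL-/- replicate 2. Without a chip term SLC2A3 also lost its call (limma adjusted p = 0.348). The other 20 genes of the list did not pass.

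The remaining HIF targets cover the cell cycle, pH control, lipid storage and feedback on HIF itself, and 8 of these 35 genes were called lower. CCND1, the G1 cyclin D1, read 12.68, 12.59 and 12.27 on the VHL-/- arrays and 10.82, 11 and 10.86 on the VHL+/+ arrays, and fell by 1.62 (SE 0.12, adjusted p = 9.57e-07). It was the 1 called gene among 16 G1 cyclins and inhibitors. NDRG1, a stress-induced gene, read 10.59, 10.18 and 12.15 without VHL and 8.62, 8.35 and 10.63 with VHL, and fell by 1.77 (SE 0.19, adjusted p = 5.06e-05). In both groups the chip 2 array of NDRG1 was the highest, and without the chip in the model its adjusted p was 0.416. CA12, a carbonic anhydrase of the cell surface, fell by 1.19, EGLN3, the prolyl hydroxylase that targets HIF alpha subunits, by 0.98, DDIT4, an inhibitor of mTORC1 signalling, by 0.84 and BHLHB2 (now BHLHE40), a transcriptional repressor, by 0.69. These 4 calls held without each of the 6 arrays, but those of EGLN3, DDIT4 and BHLHB2 were lost without a chip term (adjusted p = 0.103, 0.714 and 0.116) and those of CA12 and DDIT4 with the 6 arrays alone (0.0701 and 0.112). ZNF395 fell by 1.04 and PLIN2, a coat protein of lipid droplets, by 0.60. ZNF395 was not called without VHL+/+ replicate 3 (adjusted p = 0.0542), VHL-/- replicate 1 (0.0546) or VHL-/- replicate 2 (0.052). PLIN2 was not called without VHL+/+ replicate 2 (0.0586) or VHL-/- replicate 1 (0.0507). Both calls were also lost without a chip term (limma adjusted p = 0.267 for ZNF395 and 0.728 for PLIN2), and that of PLIN2 with the 6 arrays alone (0.101). Among 15 genes of the VHL and HIF machinery, EGLN3 was the 1 called gene.

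**Figure D2:**
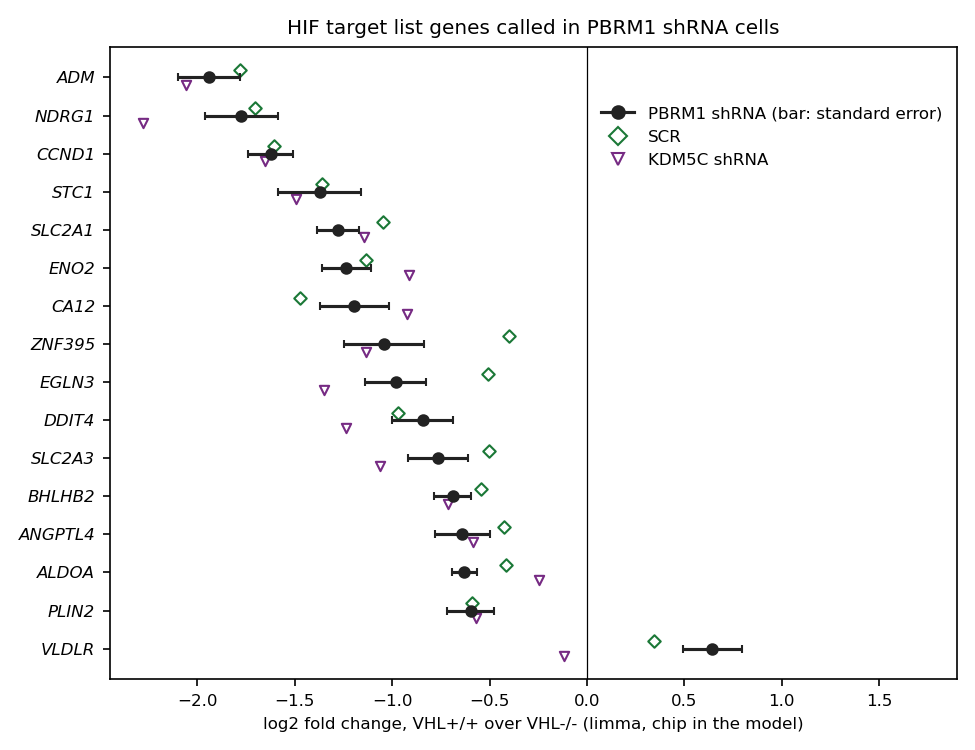
Log2 fold change with VHL (horizontal axis, VHL+/+ over VHL-/-) of 16 of the 17 HIF target genes called in PBRM1 shRNA cells. Filled circles with standard error bars are PBRM1 shRNA cells, diamonds SCR cells and triangles KDM5C shRNA cells. Of the 16, 15 genes lie left of 0 in all 3 backgrounds, and VLDLR lies at 0.64 in PBRM1 shRNA cells.

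HIF binds the core letters ACGTG or GCGTG of a hypoxia response element, and these were looked for in promoters from the RefSeq table of GRCh38.p14, on both strands (read on the other strand as CACGT and CACGC), in windows of 300 bases around the transcription start. Promoters of ADM, SLC2A1 and ENO2, the HIF targets with the largest falls among those whose promoter could be shown, and of MMP7, the gene that rose most, are given as the 250 bases before the start and with each match in capitals. ADM lies at chr11:10304823-10305072 on the plus strand, SLC2A1 at chr1:42958869-42959118 on the minus strand, ENO2 at chr12:6914330-6914579 on the plus strand and MMP7 at chr11:102530748-102530997 on the minus strand.
ADM: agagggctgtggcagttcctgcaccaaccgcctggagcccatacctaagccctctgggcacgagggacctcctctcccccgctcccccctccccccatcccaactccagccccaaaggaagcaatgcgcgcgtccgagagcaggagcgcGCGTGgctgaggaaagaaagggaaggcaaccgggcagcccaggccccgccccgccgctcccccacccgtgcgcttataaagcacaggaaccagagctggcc
SLC2A1: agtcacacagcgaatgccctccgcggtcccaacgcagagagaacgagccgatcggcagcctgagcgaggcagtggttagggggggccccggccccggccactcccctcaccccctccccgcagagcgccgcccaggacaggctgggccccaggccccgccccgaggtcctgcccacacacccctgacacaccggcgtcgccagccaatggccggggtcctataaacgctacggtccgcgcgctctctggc
ENO2: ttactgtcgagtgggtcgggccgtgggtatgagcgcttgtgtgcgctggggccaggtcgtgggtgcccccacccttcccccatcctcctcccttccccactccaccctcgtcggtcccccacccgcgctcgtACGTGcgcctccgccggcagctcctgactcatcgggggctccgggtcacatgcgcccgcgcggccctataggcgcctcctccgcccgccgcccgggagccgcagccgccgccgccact
MMP7: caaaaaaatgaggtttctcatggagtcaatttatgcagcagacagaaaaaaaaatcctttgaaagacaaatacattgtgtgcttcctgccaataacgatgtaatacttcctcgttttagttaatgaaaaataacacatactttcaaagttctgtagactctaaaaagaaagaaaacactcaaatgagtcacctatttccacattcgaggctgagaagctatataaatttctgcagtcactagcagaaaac
The match began 101 bases before the start in ADM, and 118 bases before it in ENO2, and SLC2A1 and MMP7 held none in this stretch. Of the 10 HIF targets called lower with a promoter in the table, 8 held a match in these 250 bases, all but SLC2A1 and EGLN3, and VLDLR, the HIF target that rose, held 5. In the windows of 300 bases a match was present in 11 of 12 windows of HIF targets called lower (91.7%), in 62 of 81 windows of HIF targets that were not called (76.5%), in 56.7% of windows of all lower genes, in 48.6% of windows of the higher genes and in 59.6% of windows of all genes in the table. Counted by gene the shares did not separate called from uncalled HIF targets, with a match in 90.0% of the called and 90.2% of the uncalled ones, and in 67.4% of the lower genes against 68.5% of all genes in the table. Promoters were found for 46 of the 67 lower and 48 of the 67 higher genes. These letters are short and common, and a match is a description of the window, not a site.

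Outside the HIF lists the large falls were spread over genes of several kinds. LCP1, the actin-bundling protein L-plastin, read 9.64, 9.63 and 9.12 without VHL and 7.83, 7.76 and 7.55 with VHL, and fell by 1.75 (SE 0.16, adjusted p = 9.97e-06). COL6A3, a chain of collagen VI, read 9.72, 9.70 and 9.86 without VHL and 7.93, 8.54 and 8.08 with it, and fell by 1.57 (SE 0.16, adjusted p = 3.07e-05). The VHL+/+ arrays lay below every VHL-/- array in both genes, which follows largely from their being called. CTHRC1, a secreted protein with a collagen repeat, fell by 1.33, C1QL1, a secreted C1q-like protein, by 1.42, APCDD1L by 1.23 (adjusted p = 0.0513 with the 6 arrays alone) and IRS2, an adaptor of insulin receptor signalling, by 1.23. SCG5, a chaperone of the secretory pathway, fell by 1.32 and was not called without VHL-/- replicate 2 (adjusted p = 0.0593). Its call was also lost without a chip term (limma adjusted p = 0.213) and with the 6 arrays alone (0.0817). XAGE1A, a cancer-testis antigen with near-identical copies whose signals the array may not separate, fell 2.83-fold. F3, which encodes tissue factor, read 8.21, 8.52 and 8.09 without VHL and 7.35, 7.31 and 7.02 with VHL, and fell by 1.05 (SE 0.09, adjusted p = 3.63e-06).

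The largest rises were those of MMP7, CLDN2 and KCNJ16. MMP7, which encodes matrilysin, read 7.28, 7.08 and 7.82 without VHL and 8.49, 8.64 and 11.88 with VHL, and rose by 2.28 (SE 0.36, adjusted p = 0.00199). The size was unequal between chips, with a difference of 1.39 on chip 1 and 4.07 on chip 2, and the adjusted p was 0.427 without a chip term and 0.126 with these 6 arrays alone. CLDN2, a claudin of leaky tight junctions such as those of the proximal tubule, read 7.61, 7.06 and 7.67 without VHL and 8.39, 9.12 and 9.63 with it, and rose by 1.60 (SE 0.23, adjusted p = 0.000762). KCNJ16, a potassium channel subunit of the renal tubule, read 8.90, 8.41 and 9.49 without VHL and 9.98, 10.14 and 11.22 with VHL, and rose by 1.51 (SE 0.15, adjusted p = 3.07e-05). Within each chip the VHL+/+ arrays lay above the VHL-/- arrays for all 3 genes. LAMA5, a laminin chain of epithelial basement membranes, rose by 1.16 and CDH6, a cadherin of the developing kidney, by 1.05. PCSK5, a proprotein convertase, rose by 1.16, EFHB by 1.08, C10ORF65 (now HOGA1), an enzyme of hydroxyproline breakdown, by 1.08 and AIF1L by 1.01. Each of these 9 calls held without any 1 of the 6 arrays. Besides MMP7, CLDN2, LAMA5 and CDH6 lost their calls both without a chip term and with the 6 arrays alone, PCSK5 with the 6 arrays alone, and KCNJ16, C10ORF65 and AIF1L without a chip term, which leaves EFHB as the 1 called in each of these fits.

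Some of the larger rises depended on single arrays. The calls of ALDH1A1, CFI, SLITRK4 and SLC7A7 were also lost without a chip term and with the 6 arrays alone. ALDH1A1, a retinaldehyde dehydrogenase, read 10.95, 10.94 and 10.86 without VHL and 11.57, 11.83 and 12.74 with VHL and rose by 1.13, but its adjusted p was 0.0794 without VHL+/+ replicate 3. CFI, the complement protease factor I, read 7.53, 7.32 and 7.59 without VHL and 7.89, 7.92 and 9.77 with it and rose by 1.05, with adjusted p = 0.147 without VHL+/+ replicate 3 and 0.0718 without VHL-/- replicate 3. In both genes the highest VHL+/+ value was the chip 2 array. SLITRK4, a transmembrane protein best known from neurons, rose by 1.00 and was not called without VHL+/+ replicate 2 (0.0622), VHL+/+ replicate 3 (0.155) or VHL-/- replicate 3 (0.0953). SLC7A7, a light chain of the cationic amino acid transporter of epithelia, rose by 1.01 and was not called without VHL+/+ replicate 1 (0.0682), VHL+/+ replicate 3 (0.0993), VHL-/- replicate 1 (0.059) or VHL-/- replicate 2 (0.0708).

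By list, the calls outside the HIF targets were few in number, though several short lists had a larger share called than the 1.02% of all genes. Of 28 genes of epithelial junctions and keratins 2 were called higher (7.14%), CLDN2 and CDH6, and the list median was 0.07. Of 24 genes of tubule transport, metabolism and renal lineage 2 were called higher (8.33%), KCNJ16 and ALDH1A1 (lost without VHL+/+ replicate 3, adjusted p = 0.0794), with a list median of 0.06. Of 45 matrix genes COL6A3 was called lower and LAMA5 and MMP7 higher, and of 23 complement and coagulation genes 2 were called lower, F3 among them, and 1 higher. No member passed the limma test among 13 mesenchymal transcription factors and cytoskeletal genes, 32 genes of sterol and fatty acid synthesis, 42 of the respiratory chain, 21 SWI/SNF subunits and 19 of MHC class I and antigen processing, where 4, 6, 4, 2 and 1 genes were at unadjusted p below 0.05. Of all 13141 genes 1770 (13.5%) were at unadjusted p below 0.05. Over all genes the median was 0.0042, and 6362 of 13141 differences were negative.

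Called genes were also found on the list of the ATF4 stress response. Of 33 genes of the ATF4 stress response and amino acid metabolism, 4 were called lower and 1 higher, 15.2% against 1.02% of all genes. The list median was -0.13. The 1 higher is VLDLR, described above, and on a separate list of 25 solute and amino acid transporters SLC7A7, described above, was the 1 called gene. SLC3A2 and SLC7A5 encode the heavy and the light chain of the leucine transporter. SLC3A2 read 10.09, 10.16 and 10.02 without VHL and 9.66, 9.37 and 9.04 with VHL, and fell by 0.73 (SE 0.11, adjusted p = 0.00162), a call lost without a chip term and with the 6 arrays alone. SLC7A5 read 12.70, 12.55 and 12.70 without VHL and 12.05, 12.09 and 11.58 with VHL, and fell by 0.74 (SE 0.15, adjusted p = 0.00975). The groups did not overlap for either chain, which follows largely from their being called. Both chains were lowest on the chip 2 VHL+/+ array. SLC7A5 was not called without VHL+/+ replicate 3 (0.0728) or, by its change of -0.58 and adjusted p of 0.053, without VHL-/- replicate 3. SLC1A5, a glutamine transporter, fell by 0.60 and was not called without VHL+/+ replicate 2 (0.0668), VHL+/+ replicate 3 (0.137), VHL-/- replicate 2 (0.113) or VHL-/- replicate 3 (0.0744). The calls of SLC7A5 and SLC1A5 were also lost without a chip term (limma adjusted p = 0.144 and 0.364) and with the 6 arrays alone (0.0738 and 0.0645). The 4 lower members include DDIT4, which like VLDLR is also counted among the HIF targets. The list gave 2 called lower without VHL+/+ replicate 3 or without VHL-/- replicate 3.

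Replication genes had mostly negative differences with no call. Of 49 genes of DNA replication and mitosis 41 had a negative difference and 0 passed the limma test (20 at unadjusted p below 0.05, against 13.5% of all genes), with a list median of -0.21, which was -0.06 on chip 1 and -0.42 on chip 2. RRM2, a subunit of ribonucleotide reductase, read 9.52, 9.41 and 9.57 without VHL and 9.51, 9.24 and 8.39 with it, with an adjusted p of 0.284. Its difference was -0.09 on chip 1 and -1.18 on chip 2. Among 34 inflammatory cytokines and NF-kB targets none was called by limma either (11 at unadjusted p below 0.05, against the same 13.5%), and 26 differences were negative. IL8 (now CXCL8), a neutrophil chemokine, read 12.33, 12.26 and 9.98 without VHL and 9.90, 8.72 and 10.35 with VHL, a mean difference of -1.87 with an adjusted p of 0.283 that was -2.99 on chip 1 and 0.37 on chip 2. The gene IL6, a pro-inflammatory cytokine, had a difference of -1.47 (adjusted p = 0.117) and passed only without VHL-/- replicate 3 (difference -1.97, adjusted p = 0.0361).

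Few interferon genes passed the test in PBRM1 shRNA cells. Of 86 genes 2 were called lower and 2 higher, 4.65% against 1.02% of all genes, and the list median was -0.05. After removal of the chip effect the median level of the list was 7.98, 8.06 and 8.20 on the VHL-/- PBRM1 shRNA arrays and 8.02, 7.93 and 8.01 on the VHL+/+ PBRM1 shRNA arrays, with overlap. The ISGF3 subunits STAT2 and IRF9 did not pass, with differences of 0.16 for STAT2 (adjusted p = 0.822) and -0.08 for IRF9 (adjusted p = 0.899). STAT4, another STAT factor outside these lists, read 6.95, 6.90 and 7.26 without VHL and 8.10, 8.22 and 8.96 with VHL and rose by 1.39 (SE 0.11, adjusted p = 2.12e-06). STAT4 kept its call without each array.

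The calls of HERC5, TNFSF10 and IFITM2 were lost on omission of any of several arrays. They were also lost without a chip term (limma adjusted p = 0.0829, 0.258 and 0.336) and with the 6 arrays alone (0.194, 0.0942 and 0.0866). HERC5, the ligase that attaches ISG15, fell by 1.12 (adjusted p = 0.0212) and was not called without VHL+/+ replicate 2 (0.0667), VHL+/+ replicate 3 (0.147) or VHL-/- replicate 3 (0.0644). TNFSF10, the death ligand TRAIL, fell by 0.81 (adjusted p = 0.0282) and kept its call only without VHL-/- replicate 3 (0.00669), with values of 0.0864, 0.0918 and 0.069 without VHL+/+ replicates 1, 2 and 3, 0.127 without VHL-/- replicate 1 and 0.118 without VHL-/- replicate 2. IFITM2, a membrane restriction factor, rose by 0.76 (adjusted p = 0.0282) and kept its call only without VHL+/+ replicate 1 (0.0162), with values of 0.0659 and 0.196 without VHL+/+ replicates 2 and 3 and 0.0781, 0.0811 and 0.0886 without VHL-/- replicates 1, 2 and 3. Probes of IFITM2 may not separate it from its close paralogs.

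The interferon lists were set beside those in SCR and KDM5C shRNA cells, and the difference of the VHL effect was tested gene by gene. The VHL effect in SCR cells called 24 of the 86 interferon genes lower and 0 higher, where 0.685% of all genes were called lower, 0.342% higher and 1.03% in either direction, with a list median of -0.37. The KDM5C shRNA cells, with 0.563% of all genes called lower, 0.327% higher and 0.89% in either direction, had 2 lower, 1 higher and a list median of -0.04. The level of the list on the VHL-/- SCR arrays was 9.11, 8.96 and 8.59 and on the VHL+/+ SCR arrays 8.34, 8.29 and 8.55. Both PBRM1 shRNA groups, at means of 8.08 ± 0.11 and 7.98 ± 0.05 (SD, n = 3), thus lay below all 6 SCR arrays. Of the 24 genes called lower in SCR cells, 1 was called in PBRM1 shRNA cells, HERC5, and 24 had a smaller change there, with medians of -0.79 in SCR and -0.16 in PBRM1 shRNA cells. Of the 55 genes called lower in SCR cells that are on neither the interferon nor the HIF lists, 28 were called lower in PBRM1 shRNA cells, with medians of -0.85 and -0.73, and 39 had a smaller change there. Of the 11 HIF targets called lower in SCR cells, 10 were called lower in PBRM1 shRNA cells and 3 had a smaller change. These sets were chosen by their calls in SCR cells, which by itself favours smaller changes in other cells. HERC5 is one of the genes whose call in PBRM1 shRNA cells was lost without VHL+/+ replicate 2 (adjusted p = 0.0667), VHL+/+ replicate 3 (0.147) or VHL-/- replicate 3 (0.0644).

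The difference of the VHL effect between PBRM1 shRNA and SCR cells passed for 0 of 13141 genes at a limma adjusted p below 0.05, with 553 genes at unadjusted p below 0.05, where 657 would be the number if no gene differed. Of the 86 interferon genes 34 were among the 553, and for 74 the effect was more positive in PBRM1 shRNA cells, against 6784 of all genes. For MX1, an antiviral GTPase with an effect of -1.47 in SCR cells, the difference of effects was 1.20 (95% interval 0.36 to 2.03, adjusted p = 1.00). Without VHL-/- SCR replicate 3, 12 genes passed, 11 of them on the interferon lists. That array had the lowest interferon level of its group, 8.59, so leaving it out makes the VHL effect on these genes in SCR cells more negative by construction, and the 12 genes give no support for a difference. With all 18 arrays their adjusted p values were 0.903 to 1.00. Between PBRM1 and KDM5C shRNA cells 0 genes differed, with 662 at unadjusted p below 0.05, and 1 gene passed without VHL+/+ SCR replicate 2.

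**Figure D3:**
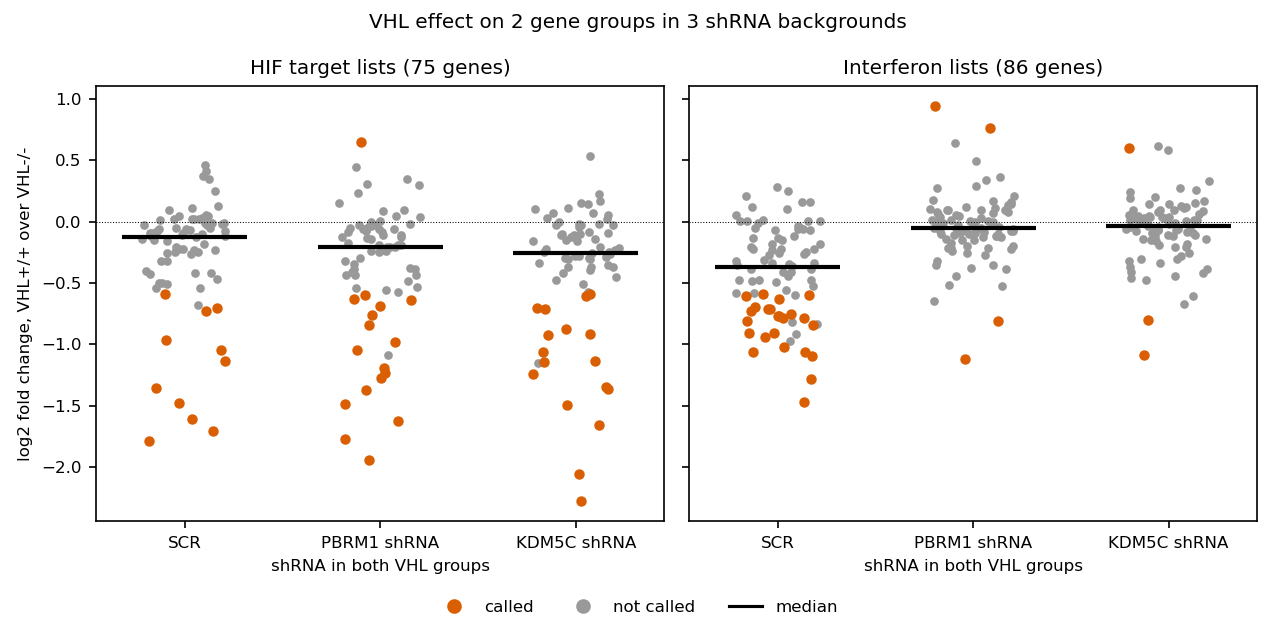
Log2 fold change with VHL (vertical axis) of the 75 HIF target genes and the 86 interferon genes in 3 shRNA backgrounds, SCR, PBRM1 shRNA and KDM5C shRNA. Each point is 1 gene, orange where it was called, and the horizontal line is the list median. The interferon median lies at -0.37 in SCR cells and at -0.05 and -0.04 in PBRM1 and KDM5C shRNA cells, while the HIF median is below 0 in all 3.

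HIF targets were called lower with VHL in all 3 backgrounds. In SCR cells 11 and in KDM5C shRNA cells 17 of the 75 were called lower, against 16 with PBRM1 shRNA. Of all genes 0.685%, 0.563% and 0.51% were called lower in SCR, KDM5C shRNA and PBRM1 shRNA cells. The list medians were -0.12, -0.26 and -0.21 in the same order. The effect on CCND1 was -1.61 in SCR and -1.65 in KDM5C shRNA cells, that on ADM -1.78 and -2.06, and that on SLC2A1 -1.05 and -1.14.

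Over all called genes the directions were shared between backgrounds. The backgrounds use separate arrays, but all compare VHL+/+ with VHL-/- cells of the 786-O line, so they are not independent checks of VHL. Of the 67 lower genes 66 had a negative effect in SCR cells, all but HTRA1, and 67 in KDM5C shRNA cells. Of the 67 higher genes 66 had a positive effect in SCR cells, all but IFITM2, and 65 in KDM5C shRNA cells. Calls were shared for 39 lower genes with SCR cells, which is 58.2% of the 67 and 43.3% of the 90 called there, and for 48 with KDM5C shRNA cells, 71.6% of the 67 and 64.9% of 74. For the higher genes 25 were shared with SCR cells (37.3% of 67 and 55.6% of 45) and 26 with KDM5C shRNA cells (38.8% of 67 and 60.5% of 43). In all 3 backgrounds 33 genes were called lower and 18 higher. With PBRM1 shRNA alone 13 lower and 34 higher genes were called, and for none of them did the test of the difference pass. IFITM2, as above, lost its call without any array but VHL+/+ replicate 1, with adjusted p up to 0.196.

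The size of the effects was set side by side for genes chosen in each kind of cell. The median of the 67 lower genes was -0.86 in PBRM1 shRNA cells, -0.72 in SCR cells and -0.80 in KDM5C shRNA cells, and that of the 67 higher genes was 0.72, 0.52 and 0.54. Read the other way, the 90 genes called lower in SCR cells had medians of -0.85 there and -0.57 in PBRM1 shRNA cells, and the 45 called higher 0.73 and 0.61. The 74 genes called lower in KDM5C shRNA cells had medians of -0.88 there and -0.80 in PBRM1 shRNA cells, and the 43 called higher 0.67 and 0.70. Among these comparisons only the 43 had a median that was larger outside the cells that chose them. Across all 13141 genes, which are not independent replicates, the effects in PBRM1 shRNA and SCR cells had a Pearson correlation of 0.648. Those in PBRM1 and KDM5C shRNA cells had one of 0.637. The Spearman correlations of these pairs were lower, at 0.488 and 0.409.

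**Figure D4:**
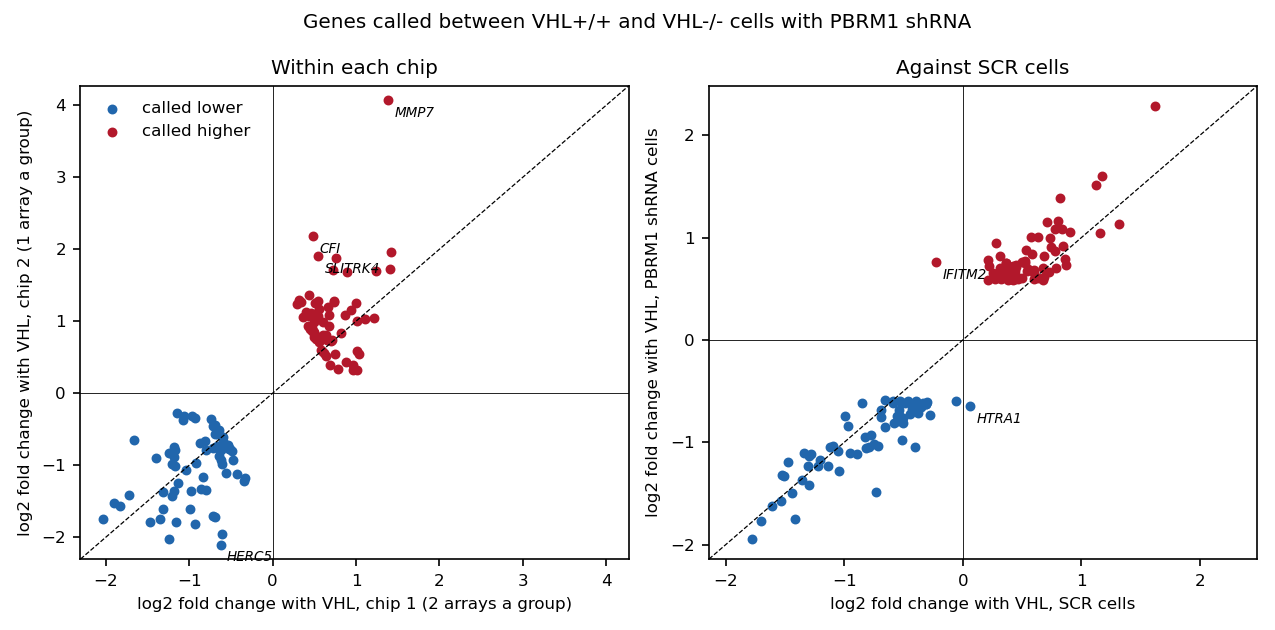
Log2 fold changes with VHL of the 134 genes called in PBRM1 shRNA cells, with chip 1 against chip 2 on the left and SCR cells against PBRM1 shRNA cells on the right. Blue points were called lower and red points higher, the dashed line marks equal change, and some of the genes furthest from it are labelled. All points have the same sign on both chips, but the genes were called on the arrays of both together. MMP7 stands out at 4.07 on chip 2, and HTRA1 and IFITM2 are the 2 genes of opposite sign in SCR cells.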

How the data were processed

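RNA of 18 samples was hybridised to Illumina HumanHT-12 V4 arrays. The deposited values are log2 intensities that the authors background-corrected with GenomeStudio and limma, log2-transformed, quantile-normalized, filtered at a detection threshold of 0.05 and reduced to 1 mean per gene, and they have a median of 7.65. Intensities near the floor of the scale can understate fold changes. The number of arrays limits the precision.

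Groups were taken from the labels, and the chip from a label field spelled ChIP that was read as the array slide. A linear model with 6 groups and the chip was fitted to all 18 arrays with limma 3.58.1 in R 4.3.3 (11 residual degrees of freedom, empirical Bayes moderation), with Benjamini-Hochberg adjustment over 13141 genes. A gene was called at adjusted p below 0.05 and a fold change of at least 1.5, and a difference of effects at adjusted p below 0.05. The fit was tested on simulated data.

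Per the methods, batch was controlled for in limma (which batch is not given in the sources used here) and the fold threshold was 2. Gene symbols were matched to RefSeq, with 10777 current symbols, 1880 unique synonyms, 93 symbols with several matches and 391 with none. Named genes were VHL, PBRM1, EPAS1 and CCND1, the 15 largest falls and 15 largest rises without overlap, called list members up to 4 a list, and genes with values only from lists without calls. Genes named outside this rule (ANGPTL4, PLIN2, SLC1A5, BHLHB2, STAT2, IRF9, MX1, HTRA1 and TRIB1) were chosen after their values were seen. Some single-gene results that the rule would name are not reported here. The members and lists were chosen with earlier results of these data known. As alternatives the chip was dropped or replaced by the replicate number, and the rest were only the arrays of the contrast, other fold thresholds, a filter on dim genes, other normalizations, and each array left out in turn.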

Additional observations from a re-analysis of the deposited data

How the results depend on the processing

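The number of genes called with PBRM1 shRNA, 134, became 39 without a chip term, 55 with only the 6 arrays of the contrast, 43 at a fold change of at least 2 and 311 with no fold threshold, and 88 to 138 with 1 array left out, the lowest without VHL+/+ PBRM1 shRNA replicate 3. The number in SCR cells, 135, became 60, 40 and 420 without a chip term, at 2-fold and with no fold threshold, and 79 to 174 with 1 array left out (79 when VHL+/+ SCR replicate 1 was omitted and 88 when VHL-/- SCR replicate 1 was). The number in KDM5C shRNA cells, 117, became 54 without a chip term, 43 with its own arrays alone, 38 at 2-fold and 364 with no fold threshold, and 87 to 143 with 1 array left out. The difference between PBRM1 shRNA and SCR cells gave 0 to 12 genes and that from KDM5C shRNA cells 0 to 1 with 1 array left out, the highest without VHL-/- SCR replicate 3 and VHL+/+ SCR replicate 2.

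With the replicate block, which replaced the chip, the count was 132 calls, all of them among the 134. Deviations of same-numbered replicates of the 2 groups correlated at -0.172, 0.334 and 0.19, so the numbers were not taken to pair the samples. Leaving out the dimmest genes, centring each array, cyclic loess and moderation with trend gave 134 to 136. Of 43 named called genes 26 lost the call without a chip term and 19 with only the 6 arrays of the contrast, 30 kept the call without each array in turn and 13 lost it in some, and none of the 43 reversed under any alternative run. Of all called genes, 39 of 67 lower and 26 of 67 higher were called under each of the 6 omissions. The cause of these shifts was not tested. Near the floor of the signal smaller changes are harder to see.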

Other observations

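Several called genes outside the lists, chosen after their values were seen, are described here. Stress and immediate-early genes were among the lower ones. JUN, an AP-1 subunit, read 10.21, 10.06 and 10.02 on the VHL-/- arrays and 9.49, 9.54 and 9.09 on the VHL+/+ arrays and fell by 0.73 (SE 0.10, limma adjusted p = 0.000815). DUSP1, a phosphatase of MAP kinases, read 10.22, 10.35 and 10.23 without VHL and 9.55, 9.74 and 9.36 with VHL and fell by 0.72. The groups did not overlap for either gene, which follows largely from their being called. PPP1R15A, which restores translation after stress, fell by 0.75 and TIPARP, an ADP-ribosyltransferase, by 0.85. CXCR7 (now ACKR3), a scavenging chemokine receptor, fell by 0.73.

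Among the higher genes, SPP1, which encodes osteopontin, read 11.47, 11.33 and 12.37 without VHL and 12.39, 12.05 and 13.20 with VHL and rose by 0.82 (SE 0.10, limma adjusted p = 0.000158). CA2, a cytosolic carbonic anhydrase, rose by 0.87. The direction for CA2 was thus the opposite of that for CA12, which fell by 1.19. JUN, DUSP1, PPP1R15A, TIPARP, CXCR7, SPP1 and CA2 each kept their call without any 1 of the 6 arrays. JUN, TIPARP, SPP1 and CA2 lost it without a chip term, and PPP1R15A, TIPARP and CA2 with the 6 arrays alone. In SCR cells the effect on SPP1 was 0.31, on CXCR7 -0.28 and on DUSP1 -0.38, and none of the differences from PBRM1 shRNA cells passed after adjustment.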
